A study of Mus musculus with 3 samples.

Results

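Signalling below G-protein-coupled receptors was examined in hippocampal area CA1 through 62 genes, carried by 90 probe sets: heterotrimeric G protein subunits, regulators of G protein signalling (RGS), adenylyl and guanylyl cyclases and cyclic nucleotide phosphodiesterases. They were taken by gene symbol from the platform annotation of the array, out of 8251 genes on 10833 single-gene probe sets, and the rule itself uses no measured value. The symbols caught 2 genes outside the families named. Gnasas1 is an antisense transcript of the Gnas locus, and Pde4dip encodes a scaffold protein that binds a phosphodiesterase. Pde6d, whose product is a prenyl-binding carrier protein, was counted with the phosphodiesterases by its symbol. Total RNA came from young male mice of the inbred C57BL/6J strain. In contextual fear conditioning, each animal spent 2 min in an unfamiliar chamber before a foot shock of 1 s at 0.5 mA, and this was done 3 times. The mice were back in the home cage 1 min later, and CA1 RNA was taken 6 h after the last shock. All 3 arrays belong to that one group, and whether an array held 1 animal or a pool is not given in the labels. No unconditioned animals are among the samples used here, so the values describe levels at this time and the differences between replicate arrays, and no effect of training was estimated.

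Values are the deposited signal intensities, in arbitrary linear units, given for arrays 1, 2 and 3 in that order or as mean ± SD (n = 3 arrays). A signal above 175, the median of all deposited values, is called above threshold, and a probe set whose mean passes it is called measured. Probes differ in how well they bind, so signals of different probe sets were not read as relative amounts of transcript. Sums of marker signals weigh bright probe sets most, and each listed gene entered with its probe set of highest mean signal. A signal under threshold does not show that a transcript was missing. Spread between arrays was taken on the log2 scale after scaling the arrays to a common median, and the log2 range is the highest minus the lowest array.

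Ligand-bound receptors make the G alpha subunit exchange GDP for GTP, which frees it from the beta-gamma dimer. Alpha s and olf stimulate adenylyl cyclase, alpha i, o and z restrain it, and alpha q and 11 activate phospholipase C beta. RGS proteins speed the hydrolysis of GTP by alpha subunits and so end the signal, while phosphodiesterases break down cAMP and cGMP. In CA1 pyramidal neurons cAMP acts through protein kinase A on CREB, which binds the cAMP response element, and this route is known for its part in lasting memory.

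Because cAMP feeds back on transcription through that element, the promoters of the members were searched for it. RefSeq (GRCm38.p6) gave 69 start-site windows for 45 of the 62 genes, of which the 250 bases before each start were read on both strands. The full palindrome TGACGTCA was in 0 of the 69 windows and in 1.55% of all 32851 windows. The half-site TGACG, which lies inside the palindrome, was in 15 windows of 13 genes, or 21.7%, against 17.8% of all windows. A window with the half-site is shown for the first measured gene, in order of symbol, of each role that had one. Each sequence reads 5′ to 3′ towards the start, and capitals mark TGACG or its reverse complement CGTCA.
Gnas, chr2:174327499-174327748, plus strand: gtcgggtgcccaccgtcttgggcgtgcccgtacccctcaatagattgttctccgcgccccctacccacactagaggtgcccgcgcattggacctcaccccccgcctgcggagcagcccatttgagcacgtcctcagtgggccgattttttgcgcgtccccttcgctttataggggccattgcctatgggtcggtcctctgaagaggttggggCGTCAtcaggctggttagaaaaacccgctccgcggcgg
Gnb1, chr4:155491111-155491360, plus strand: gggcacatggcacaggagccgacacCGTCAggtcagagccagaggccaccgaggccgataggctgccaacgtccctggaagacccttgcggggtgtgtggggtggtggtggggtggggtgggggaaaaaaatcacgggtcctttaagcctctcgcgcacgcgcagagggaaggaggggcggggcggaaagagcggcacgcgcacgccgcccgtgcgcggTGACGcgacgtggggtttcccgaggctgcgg
Rgs2, chr1:144004150-144004399, minus strand: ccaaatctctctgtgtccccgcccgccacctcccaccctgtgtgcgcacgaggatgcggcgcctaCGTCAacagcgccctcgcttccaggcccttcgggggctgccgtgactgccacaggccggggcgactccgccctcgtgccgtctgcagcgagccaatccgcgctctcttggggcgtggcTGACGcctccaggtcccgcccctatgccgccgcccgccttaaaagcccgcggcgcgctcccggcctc
Adcy9, chr16:4420499-4420748, minus strand: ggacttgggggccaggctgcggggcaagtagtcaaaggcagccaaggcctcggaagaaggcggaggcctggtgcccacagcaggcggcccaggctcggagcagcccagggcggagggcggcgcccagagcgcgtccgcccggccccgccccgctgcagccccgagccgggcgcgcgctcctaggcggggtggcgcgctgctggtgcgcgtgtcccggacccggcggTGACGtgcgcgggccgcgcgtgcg
Gucy1b1, chr3:82074712-82074961, minus strand: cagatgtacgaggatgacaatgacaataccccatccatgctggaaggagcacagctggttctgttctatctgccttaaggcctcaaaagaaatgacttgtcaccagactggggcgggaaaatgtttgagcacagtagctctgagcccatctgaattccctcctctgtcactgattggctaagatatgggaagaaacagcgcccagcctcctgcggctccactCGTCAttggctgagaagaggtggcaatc
Pde1a, chr2:80038903-80039152, minus strand: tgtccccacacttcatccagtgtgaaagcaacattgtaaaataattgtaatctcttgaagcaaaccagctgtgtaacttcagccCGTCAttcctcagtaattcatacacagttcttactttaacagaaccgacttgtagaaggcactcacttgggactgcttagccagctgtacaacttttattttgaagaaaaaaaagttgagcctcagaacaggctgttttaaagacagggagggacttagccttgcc
Rgs2 and Gnb1 carried the half-site once on each strand. In Rgs2 these began 185 and 67 bases before the start, and in Gnb1 225 and 31 bases before it. The single half-sites of Adcy9, Gucy1b1 and Gnas lay close to the start, beginning 24, 28 and 38 bases before it, and that of Pde1a began 166 bases before it. These 6 windows ranged from 41.6% G and C in Pde1a to 78.8% in Adcy9. A match is a description of the letters and not of a bound site, and the arrays measured no binding.

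Of the 90 probe sets, 43 were above threshold on all 3 arrays, 13 on 1 or 2 arrays and 34 on none. The share above on all arrays was 47.8%, beside 45.6% of all single-gene probe sets, so these genes as a whole were detected about as often as the array's other genes. By gene, 33 of 62 passed on every array with at least 1 probe set, beside 52.9% of all 8251 genes, and 22 passed on no array with any, beside 34.7%. The 52 measured probe sets covered 38 genes and are the ones for which spread is given.

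**Figure D1:**
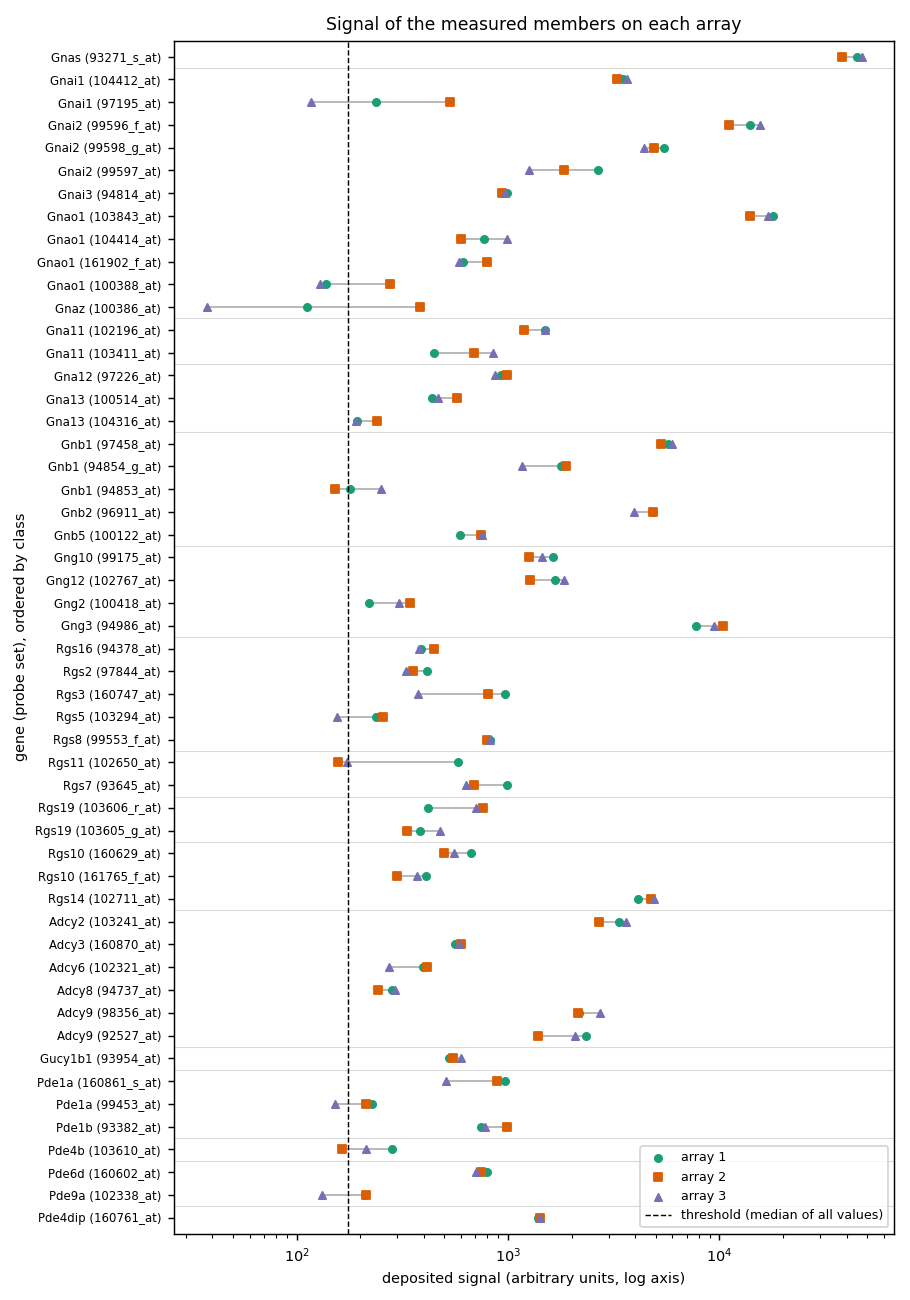
Deposited signal (x axis, arbitrary units, log scale) of the 52 measured probe sets of the members (y axis, by class), with 1 point for each of the 3 arrays and a line joining the lowest and highest. The dashed line is the threshold of 175; most rows are tight, and the widest belong to Gnaz, Gnai1 (97195_at) and Rgs11.

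Of 14 alpha subunit genes, 8 were above threshold on every array, among them stimulatory and inhibitory ones. Gnas, the gene of stimulatory alpha s, which also gives imprinted alternative products, gave 44755.5, 37968 and 47140.0 with its s-type probe set, lowest on array 2. Its other probe sets were under threshold throughout, at 31.5, 32.5 and 56.5 for 102082_at and at 174, 49.3 and 136 for 92672_at. The antisense Gnasas1 gave 36.7, 15 and 34.2, also under threshold on each array. Gnao1, whose product alpha o is a major G protein of neurons, gave 17936, 13925 and 16982 with probe set 103843_at, again lowest on array 2. The inhibitory subunit gene Gnai1 gave 3494.5, 3282 and 3664 with 104412_at, and Gnai2 gave 13947, 11110.2 and 15652 with 99596_f_at. Gnai3 was the tightest of the i, o and z class, at 989, 934 and 966, with a log2 range of 0.10.

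Gnaz lay high on a single array. Its product, alpha z, belongs to the inhibitory family and is not modified by pertussis toxin. Its signal was 112, 382 and 37.5, so array 2 alone was above threshold and array 3 was the lowest. Values under a floor of 47.5 were set to it before taking logarithms, which touched array 3. The log2 range was 2.99, the widest of the measured members at this floor. With the floor at 16.5 it was 3.30, and at 109.6 it was 1.78, under the 2.14 of Gnai1 and the 1.89 of Rgs11, so its size and its rank depend on how the low signal of array 3 is treated. The transducin genes Gnat1 and Gnat2, which serve rod and cone phototransduction, were under threshold on all arrays, Gnat1 at 55.7, 9.3 and 103 and Gnat2 at 38.5, 14.1 and 21.9.

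In the q family, Gna11 was above threshold throughout with both probe sets, and Gnaq on no array. Gna11, which encodes an activator of phospholipase C beta, gave 1502, 1188 and 1492 with 102196_at and 446, 692 and 852 with 103411_at. The first was lowest on array 2 and the second on array 1. Gnaq gave 111, 103 and 40.9 with its only probe set. Gna15, a subunit best known from blood cells, gave 16.2, 97.2 and 4.6, and Gna14 gave 5.2, 5.1 and 3.5.

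Both genes of the alpha 12 and 13 family were above threshold on every array with at least 1 probe set. Gna12 gave 923, 987 and 864 with 97226_at, a log2 range of 0.14, whereas its other probe set, 97227_at, was above threshold on array 2 only, at 61.1, 207.5 and 7.2. Gna13 gave 436, 572 and 468 with 100514_at. Its other probe set, 104316_at, gave 194, 241 and 192, and both were highest on array 2 and above threshold throughout.

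Beta subunits 1, 2 and 5 were above threshold on every array and beta 3 and 4 on none. Gnb1, a widespread beta subunit, gave 5733, 5294.5 and 5943 with 97458_at, a log2 range of 0.22. Gnb2 gave 4842.5, 4863 and 3931, lower on array 3 than on the others, which differed by little. Gnb5 encodes the divergent beta subunit that pairs with RGS proteins of the R7 class, and it gave 592, 744 and 756. Gnb3, known from cone photoreceptors, gave 143, 131 and 32.3, and Gnb4 gave 31.5, 108 and 23.1.

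Of 7 gamma subunit genes, 4 passed on all arrays. Gng3, a gamma subunit typical of neurons, gave 7779.7, 10393 and 9394, highest on array 2 and lowest on array 1. Gng2 shared that order at 219, 343 and 306, with the widest log2 range of the measured gamma subunits, 0.64. Gng10 gave 1627, 1263 and 1453.5, the narrowest at 0.37, and Gng12 gave 1672, 1269 and 1842, both lowest on array 2. The second Gng12 probe set, 99477_at, passed on array 2 only, at 95.8, 183 and 150.0. Gng4 gave 147, 44.9 and 51.3, under threshold on each array. Gng11, a gamma subunit found in endothelium, gave 57.1, 152 and 222 with 94377_at, above threshold on array 3 only, and 35.1, 8.8 and 2.7 with 161473_f_at. The cone gamma subunit gene Gngt2 gave 5.4, 18 and 16.8.

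Of 13 RGS genes, 8 passed on every array and 3 on none. In the R4 class, whose members act on alpha i and alpha q, Rgs3 gave 969, 809 and 374, a log2 range of 1.33 with array 3 low and arrays 1 and 2 close together. Rgs2, which acts chiefly on alpha q and is known as an activity-induced gene, gave 415, 356 and 329.6. Rgs16 gave 388.5, 449 and 380.2 with 94378_at and 145, 58.6 and 109 with 161609_at, the second under threshold. It is also a marker of thalamus. The 6 thalamus markers, Rgs16 among them, summed to 3409, 5735.5 and 3103, highest on array 2. By gene, 4 of the 6 were highest on array 2, Rgs16 with 94378_at included, Prkcd on array 1 and Lef1 on array 3. The widest was Cplx1, at 1417, 3458 and 1124, and its array 2 signal was the largest in that sum. Of the 6 markers, 5 were above threshold on every array and Rora on 2, and their part in the Rgs16 signal was not tested. Rgs8, known from Purkinje cells, was the steadiest of the class, at 818, 800.5 and 827 with its f-type probe set 99553_f_at. Its log2 range was 0.10. Rgs4, a regulator of alpha i and alpha q, gave 17.4, 102 and 5.2, under threshold on each array. Rgs5, a gene typical of pericytes, gave 238, 256.5 and 155 with 103294_at and 18.4, 129 and 31.7 with 96180_at, both highest on array 2. Pericyte and endothelial markers, 6 genes that include Rgs5 and Gng11, summed to 909, 1039 and 1244, highest on array 3. Of these 6, Cldn5 was above threshold on every array, Rgs5 on 2, Pecam1 on array 1 and Gng11 on array 3, and Cdh5 and Pdgfrb on none. Rgs5 was lowest on array 3 with 103294_at, and the 2 Gng11 probe sets ran in opposite orders. The part of these cells in either signal was not tested.

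R7 proteins bind Gnb5 and act on alpha i and alpha o. Rgs7, the one gene of the class above threshold on every array, gave 995, 692 and 630.1. Rgs11 gave 578, 156 and 172, a log2 range of 1.89 in which array 1 stood apart and the others were both just under threshold. Its second probe set, 161309_r_at, was also highest on array 1, at 28.4, 6.9 and 13.1, but far under threshold. Rgs6 gave 42.5, 35.8 and 24.4, and Rgs9, known from striatum and photoreceptors, gave 28.7, 67.4 and 40.2.

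Rgs14, the R12-class scaffold that is typical of CA2 pyramidal neurons and binds inactive alpha i, gave 4134, 4758 and 4918, with a log2 range of 0.29. In tissue RNA, fewer cells of a type and less RNA per cell cannot be told apart. Of the other 5 CA2 and CA3 markers examined, Nptx1, Nnat and Bok were above threshold on every array and Pcp4 and Prss23 on none. The summed signal of all 6, Rgs14 included, was 6281, 11453 and 7655. Both the sum and Rgs14 were lowest on array 1, and the sum was highest on array 2 and Rgs14 on array 3. The array 2 peak of the sum rests on Nnat, at 1042, 4861.5 and 885. Of the 4 measured markers, Nnat and Nptx1 were highest on array 2 and Rgs14 and Bok on array 3. The part of the cells that these markers stand for in the Rgs14 signal was not tested. Rgs10, of the same class and also known from microglia, gave 671, 496 and 555 with 160629_at and 409, 297 and 369.5 with 161765_f_at, both highest on array 1 and lowest on array 2. Probe set 103384_at of Rgs10 gave 74.5, 121 and 35, under threshold and highest on array 2. The summed signal of 7 microglia and blood cell markers, Rgs10 among them, was 3870.1, 4317 and 4289, lowest on array 1 where both measured Rgs10 probe sets were highest. Of these 7, 5 were above threshold on every array and the members Gna15 and Gngt2 on none, and the part of such cells in the Rgs10 signal was not tested. Rgs19, the RZ-class gene first named GAIP, gave 419, 759.7 and 704 with 103606_r_at, 383, 333 and 477 with 103605_g_at and 18.5, 14 and 8.4 with 103604_at.

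Of 7 adenylyl cyclase genes, 5 were above threshold on every array. Adcy2, a form stimulated by beta-gamma dimers, gave 3366, 2694 and 3631. Adcy9, a widely expressed form with low forskolin sensitivity, gave 2179.9, 2142 and 2729.6 with 98356_at and 2332, 1382 and 2087 with 92527_at, both lowest on array 2. Adcy8, activated by calcium and calmodulin, gave 282, 242 and 293. Adcy3, known from olfactory signalling and neuronal cilia, had the narrowest log2 range of the cyclases, 0.11, at 563, 599 and 589.9. Adcy6, a form inhibited by calcium, gave 397, 415 and 273, lowest on array 3. Adcy4 gave 152, 178 and 129, above threshold on array 2 only, and Adcy7 gave 54.3, 22.2 and 80.7, under it on each.

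Of 3 guanylyl cyclase genes, that of the beta subunit of the soluble enzyme was above threshold on every array and the others on none. Gucy1b1, part of the receptor for nitric oxide, gave 526, 551 and 597, a log2 range of 0.23. The intestinal receptor cyclase gene Gucy2c gave 37.2, 41.4 and 28.6 with 103942_at and 35.4, 22 and 21.8 with 97561_at. The retinal cyclase gene Gucy2e gave 55, 120.2 and 18.2.

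Of 11 genes counted as phosphodiesterases by symbol, Pde1a, Pde1b and Pde6d were above threshold on every array and 6 on none. Pde1a, from the calmodulin-activated family that degrades both cAMP and cGMP, gave 972, 889 and 511 with 160861_s_at, the widest log2 range of the phosphodiesterases at 0.88, and 226, 212 and 153 with 99453_at, with the same order of arrays. Pde1b gave 744, 987 and 780.4, highest on array 2, and Pde1c gave 54.6, 24.6 and 6.1, under threshold. Pde4b, a cAMP-specific form that inhibitors such as rolipram block, gave 283, 164 and 214, lowest on array 2 where it was under threshold. The cAMP-specific Pde7a gave 104, 112 and 124.5. Pde8a, a form with high affinity for cAMP, gave 82.4, 122.5 and 118, and both were under threshold throughout. Pde9a, specific for cGMP, gave 210.4, 214 and 133, under threshold on array 3.

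Pde6d differed from the other photoreceptor-family members. It encodes a prenyl-binding carrier protein used in many tissues and gave 800.5, 742 and 709, a log2 range of 0.13. Pde6a, a catalytic subunit gene of rods, gave 149, 61.9 and 156. Pde6b, the other rod catalytic gene, gave 100.4, 77.5 and 163 with 162167_f_at and 7.5, 58.2 and 12.5 with 94701_at. Pde6g, the gene of the rod inhibitory subunit, gave 151, 85.9 and 87.3. All 6 photoreceptor markers with a probe set were under threshold on every array, and all 6 are members. Pde4dip gave 1381, 1424 and 1417 with 160761_at, whose log2 range of 0.08 was the smallest of all measured members, and 44.4, 11.2 and 11.3 with 161728_f_at.

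By the median SD, the members varied between arrays about as other genes did. The median SD of log2 signal was 0.22 over the 52 measured members and 0.25 over all 6218 measured probe sets. The log2 range exceeded 1, a 2-fold difference, for 6 members, or 11.5%, beside 12.1% of all measured probe sets. In limma's test of each probe set's variance against others of its level, 0 of 52 members had an adjusted p under 0.05, beside 0.0161% of all, and 3 had an unadjusted p under 0.05, beside 5.21% of all. These were Gnai1 with 97195_at, Rgs3 and Rgs11. Rgs11 entered the measured set through array 1 alone, so nothing is read from its place in this count. These p-values compare the spread of a probe set with that of others of its level, and they do not show that the spread was small. The labels do not say that the arrays came from separate animals, so the spread between arrays may be technical.

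**Figure D2:**
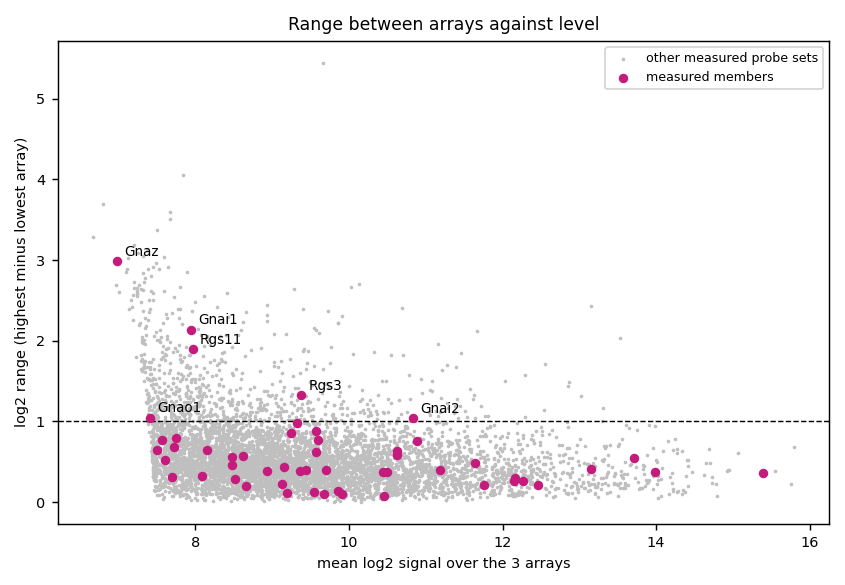
Log2 range between the 3 arrays (y axis) against mean log2 signal (x axis) for the 6218 measured probe sets in grey and the 52 measured members in colour. The dashed line is a 2-fold difference; the 6 members above it are named, and the other 46 lie under it.

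The 6 wide members did not share one order of arrays. Gnaz, Gnai1 with 97195_at and Gnao1 with 100388_at had their maximum on array 2 and their minimum on array 3, Rgs3 and Gnai2 with 99597_at had theirs on arrays 1 and 3, and Rgs11 had its maximum on array 1 and its minimum on array 2. Gnai1 gave 238, 534 and 117 with that probe set, a log2 range of 2.14, and limma gave it an unadjusted p of 0.016 and an adjusted p of 0.81. For Rgs3 the limma values were 0.025 and 0.89. Gnaz, Rgs11 and Gnao1 with 100388_at were above threshold on 1 array each and entered the measured set through that array, so their spread is given as a description, with no p. Gnai2 gave 2659.8, 1842 and 1257, a log2 range of 1.04, with array 2 between the others. Gnao1 gave 137, 277 and 129.6, a log2 range of 1.05, with array 2 apart from the others. Gnao1 with that probe set, Rgs11 and Rgs3 were the 3 members in which a single array lay over 2-fold from each of the rest and the remaining arrays were within 0.5 of each other on the log2 scale, beside 4.58% of all measured probe sets. Nothing is read from this count, since Gnao1 and Rgs11 were measured only through the array that stood apart. Without array 2 the number more than 2-fold apart was 3, namely Rgs11, Rgs3 and Gnai2. Without array 1 it was 4, and Rgs11 and Gnai2 were no longer among them. Without array 3 it was also 4, and Rgs3 and Gnai2 dropped out. The log2 range of Rgs3 was then 0.26, that of Gnai1 1.16 and that of Gnaz 1.76, and without array 2 the range of Gnai1 was 0.97. That of Gnai2 was 0.50 without array 1 and 0.53 without array 3.

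**Figure D3:**
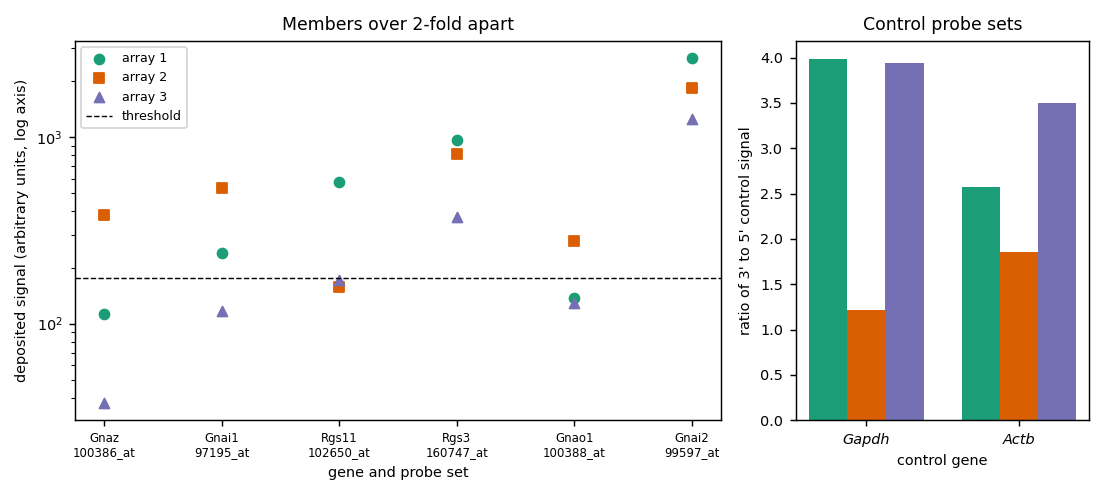
Left, deposited signal on a log axis for the 6 members more than 2-fold apart, with 1 point per array and the threshold dashed. Right, bars of the ratio of 3′ to 5′ signal of the Gapdh and Actb control probe sets on each array; array 2 has the lowest ratio of both, 1.21 and 1.86.

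Arrays also differed in signs of RNA or labelling quality. The ratio of 3′ to 5′ control signal was 3.99, 1.21 and 3.94 for Gapdh and 2.57, 1.86 and 3.50 for Actb, lowest on array 2 for both. The summed signal of 6 choroid plexus and ependyma markers was 3879, 7580 and 2360, with Aqp1 and, on 2 arrays, Folr1 and on 1 array Foxj1 and Ttr under threshold. Those sums and the thalamus marker sums given above peaked on array 2 and were least on array 3. Ttr, at 1333.5, 4256.7 and 94.2, gave the largest array 2 signal in the choroid plexus and ependyma sum. Gnaz, Gnai1 with 97195_at and Gnao1 with 100388_at had the same highest and lowest arrays. Gnaz and this Gnao1 probe set were measured only through array 2. Gnao1 with 161902_f_at shared that order. Gnai1 with 104412_at and Gnao1 with 103843_at and 104414_at did not, and all were lowest on array 2. The part of the control and marker differences in the members' values was not tested. The 4 CA1 pyramidal markers with a probe set, Wfs1, Pou3f1, Dcn and Man1a, passed on every array. Their sum was 7741, 6658 and 7080, lowest on array 2. Besides the choroid plexus and thalamus sums, no marker sum peaked on array 2 and was least on array 3. Dentate granule markers summed to 1913, 1845 and 1999, and astrocyte markers to 3483, 3158 and 2956. Interneuron markers summed to 12969, 13318 and 17509. The CA2 and CA3, microglia, striatal and oligodendrocyte sums peaked on array 2 but were least on array 1. Of 3 striatal markers with a probe set, Pde1b was above threshold on all arrays, Drd2 on 2 and Rgs9 on 0.

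By array, 15 measured members were highest on array 1, 17 on array 2 and 20 on array 3, beside 29.3%, 33.2% and 37.5% of all measured probe sets. As shares of the members these were 28.8%, 32.7% and 38.5%. After cyclic loess normalization the counts were 19, 20 and 13, so the order of these shares depends on the scaling. Of the 6 measured phosphodiesterase probe sets, 4 were highest on array 1 and 0 on array 3, also without scaling and after quantile normalization or cyclic loess. In the main setting these 4 were both Pde1a probe sets, Pde4b and Pde6d, the gene of the carrier protein. Of the 6 measured adenylyl cyclase probe sets, 4 were highest on array 3, and 3 without scaling or after cyclic loess. These counts are small and were not tested.

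Among the 38 members under threshold on average, 16 were highest on array 1, 15 on array 2 and 7 on array 3. The shares over all probe sets that were not measured were 31.1%, 35.5% and 33.3%. On array 2, 7 exceeded both other arrays by over 2-fold, or 18.4%, beside 9.64% of the 6204 probe sets that were not measured. They were Gna12 with 97227_at, Rgs5 with 96180_at, Gucy2e, Gnb4, Rgs4, Gna15 and Pde6b with 94701_at, and of these Gna12 alone passed the threshold there, at 207.5. Array 2 was also the one with the lowest 3′ to 5′ ratios, whose part in these low signals was not tested.

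Where a gene had several probe sets, the order of arrays could be compared between them. Of the 20 genes with 2 or more probe sets, 10 had at least 2 measured. In 4 of these 10 all measured probe sets were highest on the same array, and in 3, Gna13, Pde1a and Rgs10, they also shared the lowest. Over all 675 such genes on the array the shares were 34.4% and 19.6%. In the deposited signals, without scaling, the counts were 3 and 2, because Gna11 and Gna13 each had a probe set with a near tie.

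**Figure D4:**
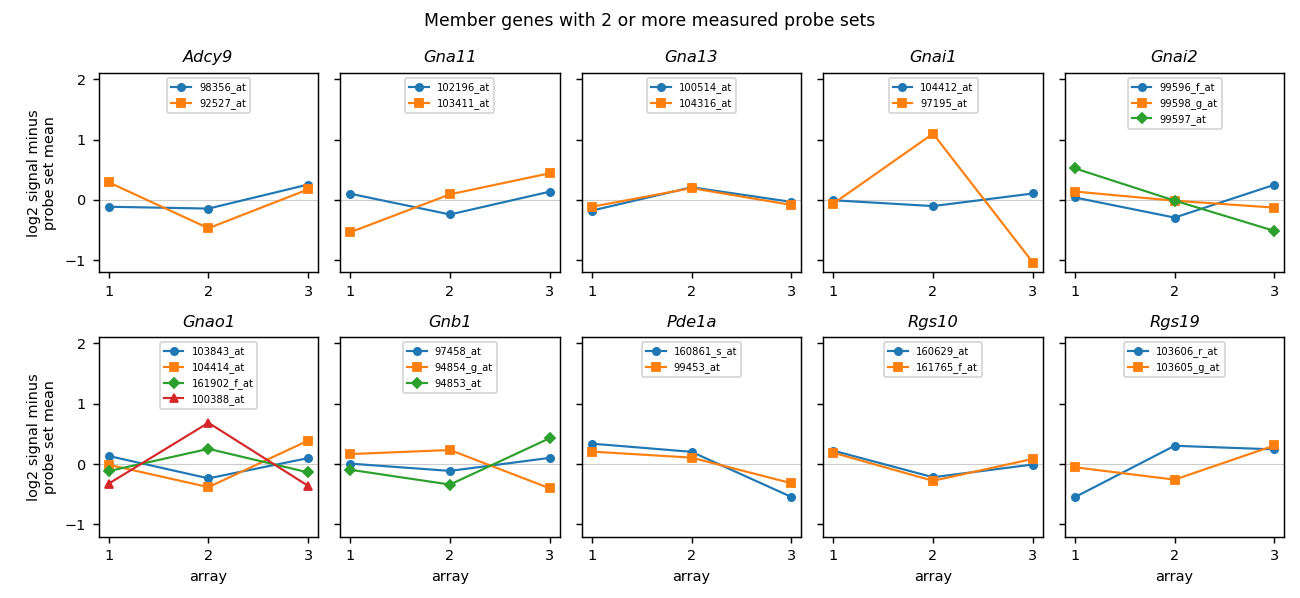
Log2 signal minus the probe set's mean (y axis) on arrays 1 to 3 (x axis) for the 10 member genes with 2 or more measured probe sets, with 1 line per probe set. Lines run together for Gna13, Pde1a and Rgs10 and cross for Gnai1, Gnao1 and Gnb1.

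For the wide alpha subunit genes with several probe sets, another probe set of the same gene was narrow. Gnai1 had a log2 range of 2.14 with 97195_at and 0.21 with 104412_at. For Gnao1 the range was 1.05 with 100388_at, which was highest on array 2, and 0.37 with 103843_at, which was lowest there. Its other measured probe sets split in the same way: 161902_f_at gave 611.5, 793 and 584, highest on array 2, and 104414_at gave 773, 600.3 and 991, lowest on it, while 103844_at was under threshold at 8.6, 13.1 and 10.2. Gnai2 was lowest on array 3 with 99597_at and 99598_g_at, the second at 5455, 4928.5 and 4397, and highest there with 99596_f_at. Gnb1 was highest on array 3 with 97458_at and with 94853_at, at 179, 151.5 and 249.6, and lowest there with 94854_g_at, at 1790.0, 1883 and 1172. The values of these genes therefore do not give 1 order of the arrays, and the f, g and s suffixes mark probe sets that can bind related transcripts or share probes with another set.

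Genes that act on or after these proteins were taken from a fixed list of 46, of which 27 had a single-gene probe set and 16 were measured. Taking each gene at its brightest probe set, 15 of the 27 passed on every array, beside 52.9% of all genes so taken. The number on none was 11, beside 34.7% of all genes on none with any probe set. Of the 16 measured, 0 were more than 2-fold apart, beside 10.1% of all measured genes at their brightest probe set. In limma 0 of 16 had an adjusted p under 0.05 and 0 an unadjusted one. Their median log2 range was 0.45, beside 0.43 for the measured members and 0.48 for all measured probe sets. Protein kinase A, the main cAMP effector, was above threshold on every array for 4 of 5 subunit genes. Its catalytic subunit gene Prkaca gave 2078, 1987 and 1954.5, and the regulatory subunit gene Prkar1a gave 11963, 11855 and 10979.6, the tightest pair of the list at log2 ranges of 0.07 and 0.08. Plcb1, the phospholipase C activated by alpha q and 11, gave 1516, 1893 and 1493. The cyclic-nucleotide-gated pacemaker channel genes Hcn2 and Hcn3 gave 1956, 2573 and 1829.5, and 758, 904 and 651, highest on array 2 both times. Of the channels opened by beta-gamma dimers, Kcnj9 was above threshold on each array, at 279.7, 407.5 and 254, and Kcnj3, Kcnj5 and Kcnj6 on none.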

How the data were processed

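Single-channel arrays of 3 replicates were analysed. The deposited values are signal intensities on a linear scale, 1 per probe set and array. The 2% trimmed mean was 500.3 for each array. No source used here names the authors' program or scaling method. Median signals were 176, 177 and 171. Any 2 arrays shared 6 to 18 identical values. Probe sets were named through the platform annotation. Of 12488, 66 controls, 396 with several genes and 1193 unnamed were left out for naming, and 1 of the several-gene probe sets had a symbol of the rule. All 90 members matched RefSeq (GRCm38.p6) by Entrez identifier.

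Levels are deposited signals. For spread, arrays were scaled to a common median over measured probe sets (mean above 175) by factors of 0.991, 0.987 and 1.02, floored at 47.5 (25th percentile) and log2-transformed. limma 3.58.1 in R 4.3.3 set each variance against a robust intensity-dependent prior (winsor tails 0.05 and 0.1). Benjamini-Hochberg adjustment ran over 6218 probe sets, with a threshold of 0.05. The code was run on simulated normal noise with shifts on 1 array, which does not tell how large a spread it could detect in these data. With 3 arrays in 1 group, their number limits the precision. Alternatives changed scaling, floor, threshold, probe sets, prior and replicates. Every member may be named; wide members, genes with several probe sets, marker genes and the narrowest and widest of each class are given by array. Members, gene lists and tests were chosen with earlier results of these data known, and several lists overlap the members.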

Additional observations from a re-analysis of the deposited data

How the results depend on the processing

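In every alternative that kept a threshold on level, the median SD stayed within 1.5 times its value and 0 members passed the limma variance test. The smallest adjusted p of a member there was 0.069, for Rgs11 without array 3. That probe set is above threshold through array 1 alone, so the value is given as a description only. With no threshold, 8 of 90 members passed, beside 11.1% of all probe sets, the 8 all among those that the main setting leaves out. Probe sets under the floor on every array have no spread in that setting and enter the prior, so nothing is read from these passes. In the same setting 22 of 90 were over 2-fold apart, beside 19.7%. With the threshold at the 25th percentile, 20 of 72 were over 2-fold apart, beside 25.2%, and at the 75th 27 members were above it on all arrays and 2 of 33 were over 2-fold apart, beside 6.59%. With 1 probe set a gene, 3 of 38 were, beside 10.1%. The same 6 members were over 2-fold apart under no scaling, quantile normalization and cyclic loess. The number highest on array 1 was 23 at the lower threshold and 34 with none. On array 2 it was 10 at the higher threshold and 29 with none. On array 3 it was 12 at the higher threshold and 13 after cyclic loess. With no threshold, a probe set under the floor on every array has tied values and was counted for array 1. The counts of 34 and 29 are therefore not read as a shift between arrays. Leaving out 1 array in turn gave 43 to 47 members above threshold, a median SD of 0.16 to 0.24, 3 to 4 members over 2-fold apart, 0 past the variance test, and 22 to 28, 23 to 24 and 27 highest on arrays 1, 2 and 3. The count at an unadjusted p under 0.05 was added after seeing the data. Other causes of these changes were not tested beyond the number of probe sets each setting keeps. No paired analysis was possible because there is 1 group. Signals near the threshold limit what the arrays resolve.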
